A study of Mus musculus with 3 samples.

Results

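The oligodendrocyte lineage genes were Olig1, Olig2, Olig3, Sox8, Sox10, Pdgfra, Cspg4 and Gpr17. They were taken as the array probes for mouse transcripts whose accession is a RefSeq transcript of one of these genes. Each of the 8 genes had 1 probe, so 8 of the 26582 probes that could be named, and 8 of 20145 named genes, are described. Expression was measured on 3 one-colour Agilent arrays, 1 for each sorted population, to ask how cells sorted for Lhx6 from differentiated mouse ES cells compare with the other cells of the same aggregates and with their counterparts from the embryo. ES-Lhx6-GFP+ (ES-GFP+) cells and ES-Lhx6-GFP- (ES-GFP-) cells both came from J14 ES cells (male, strain 129S4/SvJae), which carry an Lhx6-GFP BAC, a transgene in which Lhx6 regulatory sequence drives GFP, and, by the labels, a viral 692-mCherry enhancer reporter. Both were cultured for 12 days in the medial ganglionic eminence (MGE) protocol, with 100 ng/ml of the Wnt inhibitor Dkk-1 on D0 and 6 nM of the hedgehog agonist SAG on D3 and again on D6, and were sorted alive from 1920 pooled aggregates. MGE-GFP+ cells were sorted from the dissected MGE of E12.5 embryos of CD1 background carrying the Lhx6-GFP BAC (female by the labels), and were not cultured or treated. The ES cells are 1 line, the number of embryos is not given in the sources used here, and strain, sex, culture and the reporter all differ between the ES cells and the embryo and cannot be told apart.

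Oligodendrocytes, the myelin-forming glia of the central nervous system, arise from ventral progenitor domains patterned by hedgehog signalling, the MGE among them. The basic helix-loop-helix factor Olig2 is made in the ventral progenitors themselves, before Sox10 and Pdgfra mark the committed oligodendrocyte precursor, a migrating and dividing cell that also carries the NG2 proteoglycan encoded by Cspg4. Gpr17 is transient in cells that leave the precursor state, and the myelin genes follow. None of these genes is restricted to this lineage: Sox10 is also made in neural crest, Pdgfra in mesenchyme and early endoderm, Cspg4 in pericytes, Olig2 in motor neuron progenitors and Olig3 in dorsal progenitors of the hindbrain and spinal cord.

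The 8 genes lie on 7 chromosomes of the mouse genome, with Olig1 and Olig2 as neighbouring coding genes on chromosome 16. Pdgfra lies on chromosome 5 between Gsx2, a forebrain progenitor gene, and Kit, another receptor tyrosine kinase gene. Cspg4 is on chromosome 9, Olig3 on 10, Sox10 on 15, Sox8 on 17 and Gpr17 on 18. RefSeq promoter sequence (build GRCm38.p6, 250 bases before and 50 after the start of the gene, given 5′ to 3′ on the strand of the gene) was at hand for 5 of the 8, and 3 of these are shown because their genes had different patterns on the arrays: Olig2 was measured in all 3 populations, while Olig3, of the same family, and Pdgfra were not. Capitals mark E-boxes (CANNTG, the core motif of helix-loop-helix factors), TATA boxes (TATAAA) and a SOX motif (AACAAT), each searched on both strands.
Olig2, chr16:91225300-91225599, plus strand: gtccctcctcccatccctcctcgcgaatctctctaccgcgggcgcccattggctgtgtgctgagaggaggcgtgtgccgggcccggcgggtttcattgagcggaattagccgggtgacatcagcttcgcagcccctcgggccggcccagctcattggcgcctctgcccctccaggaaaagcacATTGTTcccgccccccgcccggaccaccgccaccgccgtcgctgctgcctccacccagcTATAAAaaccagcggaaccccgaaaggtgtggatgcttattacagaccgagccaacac
Olig3, chr10:19356289-19356588, plus strand: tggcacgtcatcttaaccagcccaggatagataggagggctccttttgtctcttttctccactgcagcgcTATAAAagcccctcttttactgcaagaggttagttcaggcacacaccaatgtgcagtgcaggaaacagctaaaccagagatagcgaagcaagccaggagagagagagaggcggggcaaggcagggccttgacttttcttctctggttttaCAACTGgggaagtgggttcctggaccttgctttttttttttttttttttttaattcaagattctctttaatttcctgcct
Pdgfra, chr5:75152001-75152300, plus strand: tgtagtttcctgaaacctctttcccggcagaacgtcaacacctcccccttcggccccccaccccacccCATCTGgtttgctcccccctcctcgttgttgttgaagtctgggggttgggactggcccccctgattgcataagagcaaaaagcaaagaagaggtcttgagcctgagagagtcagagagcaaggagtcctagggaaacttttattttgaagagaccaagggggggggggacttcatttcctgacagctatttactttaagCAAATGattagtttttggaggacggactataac
The Olig2 window held 1 TATAAA, 1 SOX motif on the opposite strand (read here as ATTGTT) and 0 E-boxes, with a GC content of 65%. The Olig3 window held 1 TATAAA and 1 E-box at a GC content of 46%. The Pdgfra window held 2 E-boxes at a GC content of 51%. The windows of Cspg4 (chr9:56864854-56865153, plus strand) and Sox8 (chr17:25570637-25570936, minus strand) held 0 and 1 E-boxes and neither of the other motifs. Of all 32851 promoter windows, 72.3% held an E-box, 13.6% TATAAA and 10.7% the SOX motif, and a match is a match of letters only.

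Intensities below are spot intensities in the arbitrary units of the scanner, after subtraction of the background and before any scaling between arrays. The 75th percentile of the mouse probes, which served as the scale of each array, was 747 on the ES-GFP+, 843 on the ES-GFP- and 576 on the MGE-GFP+ array. The software called 90.6%, 80.3% and 77.1% of mouse probes well above background on these arrays. The arrays also carry 106 control probes for E1A and ERCC sequences, which match no mouse gene, and 86 of them were called well above background on the ES-GFP+ array against 34 on each of the others. Their 95th percentile was 377, 208 and 152. An intensity under that value is described as within the range of the control probes, since probes with no mouse target reached it there. Repeat spots of 1 probe, counting only spots called well above background, varied by 10.1% to 10.5% (SD), or 0.14 on the log2 scale. A difference between 2 arrays thus had an SD of about 0.20 on that scale, and 2 SDs came to 1.32-fold. This limit can be too small for dim genes. The 10 spots of the Pdgfra probe had log2 SDs of 0.19, 0.16 and 0.58 on the ES-GFP+, ES-GFP- and MGE-GFP+ arrays. With 1 array per population there is no replicate error and no test: a difference is described as larger than the spread of repeat spots or not, and cultures, embryos, sorts and amplifications add variation that it does not show. The sorted gene itself went with the labels. Lhx6 had intensities of 22250, 4061 and 29403 on the ES-GFP+, ES-GFP- and MGE-GFP+ arrays (geometric means over 3 probes), although its brightest probe alone differed by 0.05 (log2) between the ES populations. All 14 genes of an Lhx6 lineage list were above the control probes on all 3 arrays, the GFP- cells included.

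Most of the 8 genes were highest in the ES-GFP- cells. All 8 were well above background there, 6 in ES-GFP+ cells and 4 in MGE-GFP+ cells, where 80.3%, 90.6% and 77.1% of all mouse probes were. In ES-GFP- cells 4 genes exceeded the range of the control probes, namely Olig1, Olig2, Sox10 and Gpr17, a share close to the 46.9% of all mouse probes that did so on that array. In both GFP+ populations Olig2 was the only one of the 8 that did so, where 36.8% and 43.3% of all mouse probes were above that range. As these are sorted bulk samples, fewer cells of a type and less RNA per cell cannot be told apart.

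**Figure D1:**
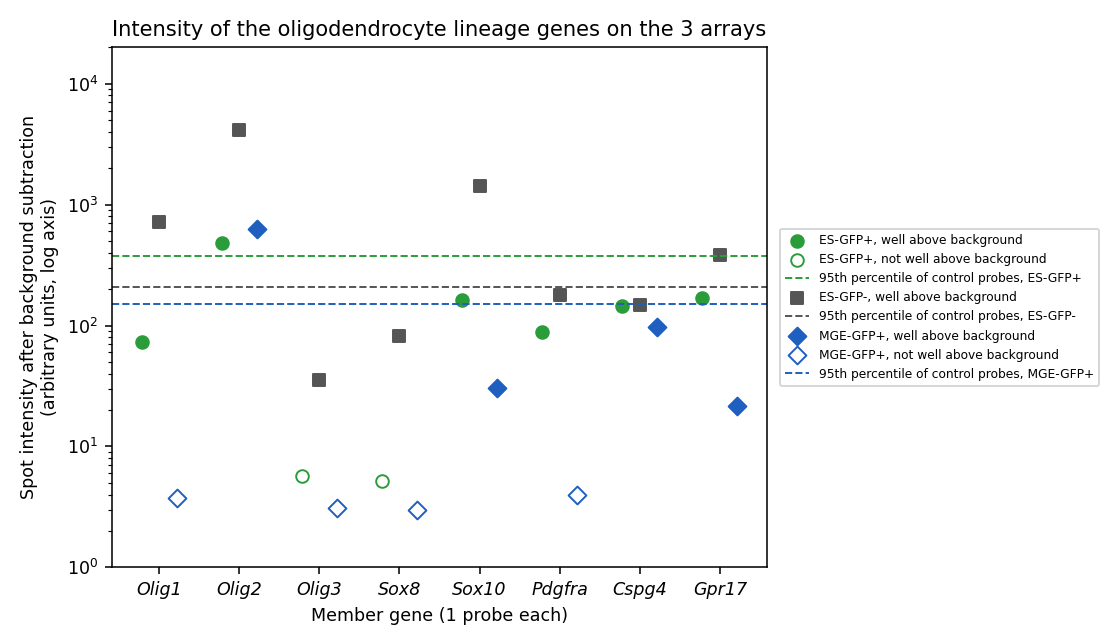
Spot intensity after background subtraction (arbitrary units, log axis) of the 8 genes on the ES-GFP+ (green circles), ES-GFP- (grey squares) and MGE-GFP+ (blue diamonds) arrays, 1 array each and not scaled between arrays. Open symbols were not well above background, dashed lines are the 95th percentile of the 106 control probes on each array, and the Pdgfra symbols are geometric means of 10 spots. Olig2 is the only gene above the line of its own array in all 3 populations, and the open symbols are Olig3 and Sox8 in ES-GFP+ cells and Olig1, Olig3, Sox8 and Pdgfra in MGE-GFP+ cells.

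Olig2, which specifies oligodendrocyte precursors and motor neuron progenitors, had an intensity of 478 in ES-GFP+, 4117 in ES-GFP- and 623 in MGE-GFP+ cells. It was thus detected in all 3 populations and was highest in the ES cells sorted as GFP negative. After scaling, it was 7.63-fold lower in ES-GFP+ than in ES-GFP- cells (log2 difference -2.93) and 4.51-fold lower in MGE-GFP+ cells (log2 difference -2.17). The order of the GFP+ populations was also outside the spread of repeat spots, with MGE-GFP+ cells 1.69-fold above ES-GFP+ cells (log2 difference 0.76). Olig2 was the only one of the 8 that was higher in the MGE-GFP+ cells by more than that spread with this scaling. All 3 differences kept their direction in every one of the 9 processing alternatives, between -3.38 and -2.71, between -2.21 and -1.87 and between 0.73 and 1.51.

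Olig1, the partner gene of Olig2 that acts later, in precursor maturation and myelin repair, had an intensity of 72.9 in ES-GFP+, 722 in ES-GFP- and 3.73 in MGE-GFP+ cells. The last value was not well above background, and the first lay within the range of the control probes. Olig1 was 8.78-fold lower in ES-GFP+ than in ES-GFP- cells (log2 difference -3.13), and at least 40.8-fold lower in MGE-GFP+ cells. So the neighbouring genes Olig1 and Olig2 shared the direction of the difference between the ES populations, and went apart in the embryo, where Olig2 alone was measured. Where every value within the range of the control probes was raised to its upper end, the difference of Olig1 between the ES populations shrank to -0.76 and that between MGE-GFP+ and ES-GFP- cells to -1.70, while those of Olig2 stayed at -2.93 and -2.17. The bound of 40.8-fold thus holds at the lower floor, and the second difference was -2.90 with normexp and -3.20 in the deposited values.

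Olig3, which belongs to dorsal progenitors rather than to the ventral lineage, had intensities of 5.67, 35.4 and 3.12 in ES-GFP+, ES-GFP- and MGE-GFP+ cells. It was well above background in ES-GFP- cells only, and within the range of the control probes there. Its difference had a bound alone, at least 1.33-fold lower in ES-GFP+ and at least 2.00-fold lower in MGE-GFP+ than in ES-GFP- cells. No value was given between the GFP+ populations. These bounds rest on the processing: the first difference was -0.03 with normexp, and the second -0.21 in the deposited values. Neither had a value without background subtraction or at the control range.

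Sox10, the SOX E factor required for terminal oligodendrocyte differentiation, had intensities of 162, 1422 and 30.3 in ES-GFP+, ES-GFP- and MGE-GFP+ cells. It was called well above background on all 3 arrays, but only the ES-GFP- value exceeded the control probes. Sox10 was 7.78-fold lower in ES-GFP+ cells (log2 difference -2.96) and 32.0-fold lower in MGE-GFP+ cells (log2 difference -5.00) than in ES-GFP- cells. With values raised to the upper end of the control range these differences became -1.74 and -2.68.

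Sox8, a SOX E relative with an overlapping role, had intensities of 5.21, 81.9 and 2.98 in the same order. It was detected in ES-GFP- cells only, within the range of the control probes, and was at least 3.09-fold lower in ES-GFP+ and at least 4.63-fold lower in MGE-GFP+ cells. Sox8 was not well above background in either GFP+ population, so no value was given between them. These bounds rest on the background subtraction: the differences were -0.63 and -0.50 with normexp and -0.57 and -0.71 without subtraction, and there was no value at the control range.

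Pdgfra, the receptor through which PDGF-A drives division and migration of the precursors, was the gene measured most often, since its probe was spotted 10 times on each array. The 10 spots ranged from 73.7 to 106 in ES-GFP+ cells, with a geometric mean of 87.7 and an SD of 11.6 over spots. They ranged from 150.0 to 213 in ES-GFP- cells (geometric mean 180.2, SD 20.6) and from 2.47 to 7.14 in MGE-GFP+ cells (geometric mean 3.93, SD 1.83). The ranges of the 2 ES arrays did not overlap, and 0 of the 10 spots were called well above background on the MGE-GFP+ array. Repeat spots share 1 RNA sample and 1 hybridisation, so this spread is technical. Pdgfra was 1.82-fold lower in ES-GFP+ than in ES-GFP- cells (log2 difference -0.86), past 2 SDs of a repeat-spot difference and smaller than the differences of Olig1, Olig2 and Sox10. In MGE-GFP+ cells it was at least 10.2-fold lower than in ES-GFP- cells and at least 5.60-fold lower than in ES-GFP+ cells. The first of these differences was -1.38 with normexp and -1.78 in the deposited values, and the second -0.77 with quantile normalisation. In neither ES population did its mean exceed the control probes, so there was no value at the control range.

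**Figure D2:**
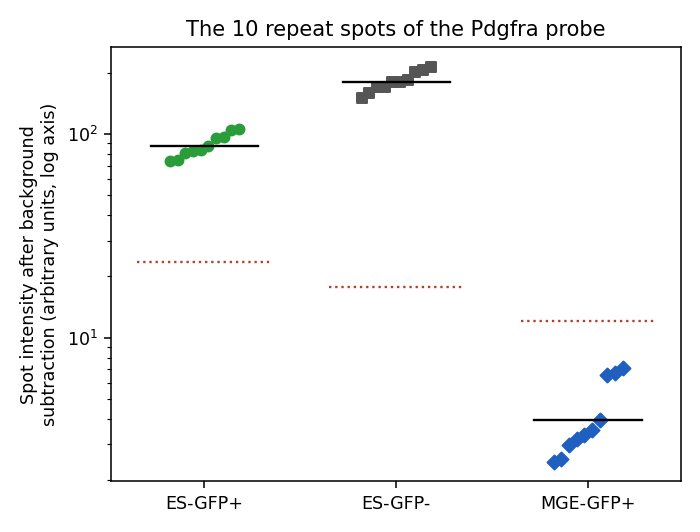
Intensity after background subtraction (arbitrary units, log axis) of the 10 repeat spots of the Pdgfra probe on each of the 3 arrays, sorted by value, with the geometric mean (black line) and the lowest intensity among probes well above background on that array (dotted line). The spots lie at 73.7 to 106 on the ES-GFP+, 150.0 to 213 on the ES-GFP- and 2.47 to 7.14 on the MGE-GFP+ array, where all 10 fall under the dotted line at 12.1.

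Gpr17, a G protein-coupled receptor of committed precursors on the way to myelination, had intensities of 169, 385 and 21.4 in ES-GFP+, ES-GFP- and MGE-GFP+ cells. It was 2.02-fold lower in ES-GFP+ cells (log2 difference -1.01) and 12.3-fold lower in MGE-GFP+ cells (log2 difference -3.62) than in ES-GFP- cells. The ES-GFP- value was above the range of the control probes, and those of both GFP+ populations were within it. The difference to MGE-GFP+ cells was under 4-fold with normexp (-1.90), in the deposited values (-1.87) and with values raised to the control range (-0.79).

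Cspg4, which encodes the NG2 proteoglycan, differed little between the 3 arrays with the 75th percentile as the scale. Its intensities were 146, 148 and 97.8, all within the range of the control probes. The log2 differences were 0.16 between ES-GFP+ and ES-GFP- cells, -0.04 between MGE-GFP+ and ES-GFP- cells and -0.20 between MGE-GFP+ and ES-GFP+ cells, each under 2 SDs of a repeat-spot difference. Their direction turned with the scaling, the first running from -0.51 to 0.23, the second from -0.04 to 0.27 and the last from -0.20 to 0.74 over the alternatives. The first passed 2 SDs with quantile normalisation, and the last with quantile normalisation, the 50th percentile (0.54) and the deposited values (0.58).

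Between the ES populations, 7 of the 8 genes were lower in ES-GFP+ cells, where 35.5% of the 18655 genes with a value were. At least 4-fold lower were 3 of the 8 (Olig1, Olig2 and Sox10) and 1.75% of the 18655 genes. The median log2 difference of the 8 genes was -1.32 and that of all genes was 0.27, a shift that depends on the scaling and was -0.18 with each array scaled to its 50th percentile. Relative to the median of all genes, Olig1 was at -3.40, Sox10 at -3.23 and Olig2 at -3.20. Ranked among all 18655 genes, 51 genes had a lower difference than Olig1, 71 than Sox10 and 75 than Olig2, while Gpr17 and Pdgfra stood at the percentiles 6.23 and 7.91 and Cspg4 at 44.5. Over the alternatives Olig2 stayed between the percentiles 0.176 and 1.50 and Sox10 between 0.214 and 1.59, while Olig1 ran from 0.257 to 10.1.

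**Figure D3:**
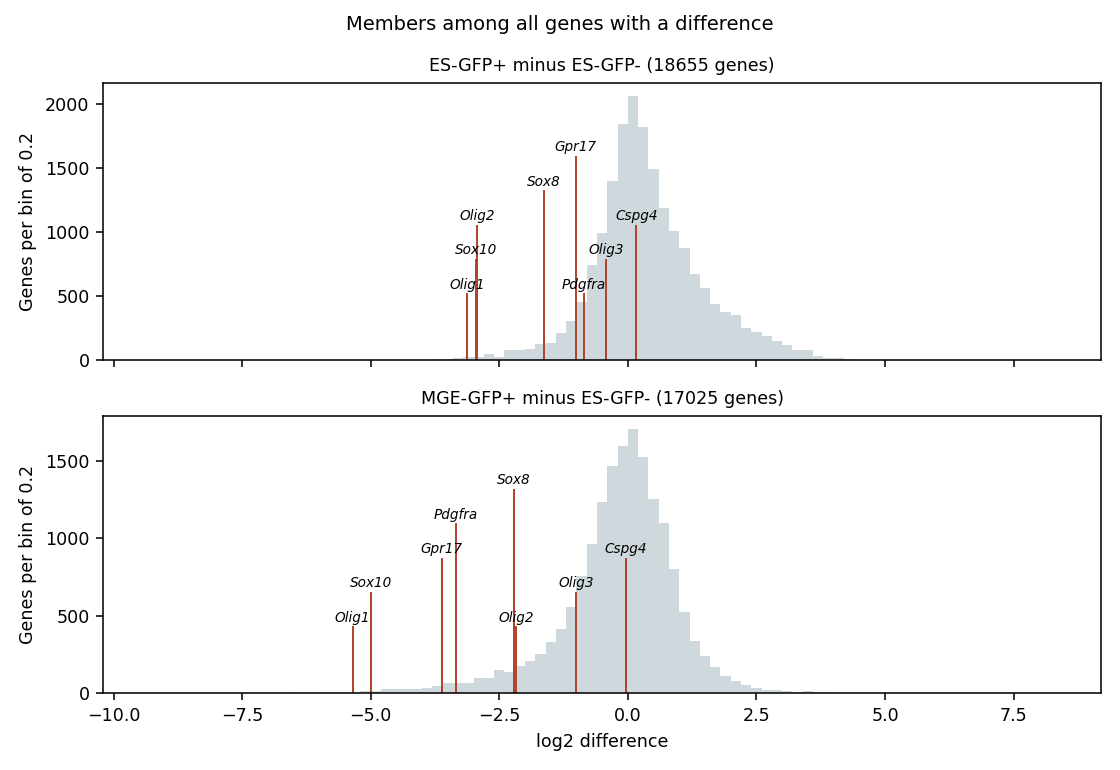
Histograms of the log2 difference of all genes with a value (grey, genes per bin of 0.2) for ES-GFP+ minus ES-GFP- cells (top, 18655 genes) and MGE-GFP+ minus ES-GFP- cells (bottom, 17025 genes), with red lines at the values of the 8 genes, bounds included at their bound. Line heights only separate the names. Olig1, Sox10 and Olig2 lie near -3 in the top panel with few genes to their left, and Cspg4 lies near 0 in both.

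Between MGE-GFP+ and ES-GFP- cells, 6 of the 8 genes (all but Olig3 and Cspg4) were at least 4-fold lower in the embryo cells, and 6.8% of the 17025 genes with a value were. The median was -2.78 over the 8 genes and -0.06 over all genes, with 3 of the 6 (Olig1, Sox8 and Pdgfra) known as bounds. The count was 2 with normexp (Olig1 and Sox10), 3 in the deposited values (Olig1, Olig2 and Sox10) and 2 of 4 at the control range (Olig2 and Sox10), so that the calls of Sox8, Pdgfra and Gpr17 ended in each of these. Both comparisons use the ES-GFP- array, so a high value on it moves them together. Olig1, Olig2 and Sox10 were at least 4-fold lower on both GFP+ arrays than on the ES-GFP- array. So were 256 (1.52%) of the 16884 genes with both values. In MGE-GFP+ cells Olig2 was under 4-fold lower with the 50th percentile (-1.87) and with normexp (-1.99). At the control range Olig1 was under 4-fold lower in both comparisons (-0.76 and -1.70), and Sox10 in that of the ES populations (-1.74).

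Between the GFP+ populations, 4 of the 6 genes with a value (Olig1, Sox10, Pdgfra and Gpr17) were at least 4-fold lower in MGE-GFP+ than in ES-GFP+ cells, where 13.5% of 18580 genes were, and Olig2 was higher. Sox10 was 4.11-fold and Gpr17 6.09-fold lower, and Olig1 at least 4.65-fold lower. None of these 4 exceeded the control probes on either array, and 0 of the 6 genes passed 4-fold with intensities that were not background-subtracted, with normexp, with quantile normalisation, with the 50th percentile as the scale or in the deposited log2 values. The ES-GFP+ array is the one on which 86 of the 106 control probes, with a median intensity of 69.9, were well above background, against a median of 7.73 on the MGE-GFP+ array, and the part of that signal in these 4 differences was not tested. Olig2 was above the control probes on both arrays, and its difference was 0.76 also with values raised to the control range.

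**Figure D4:**
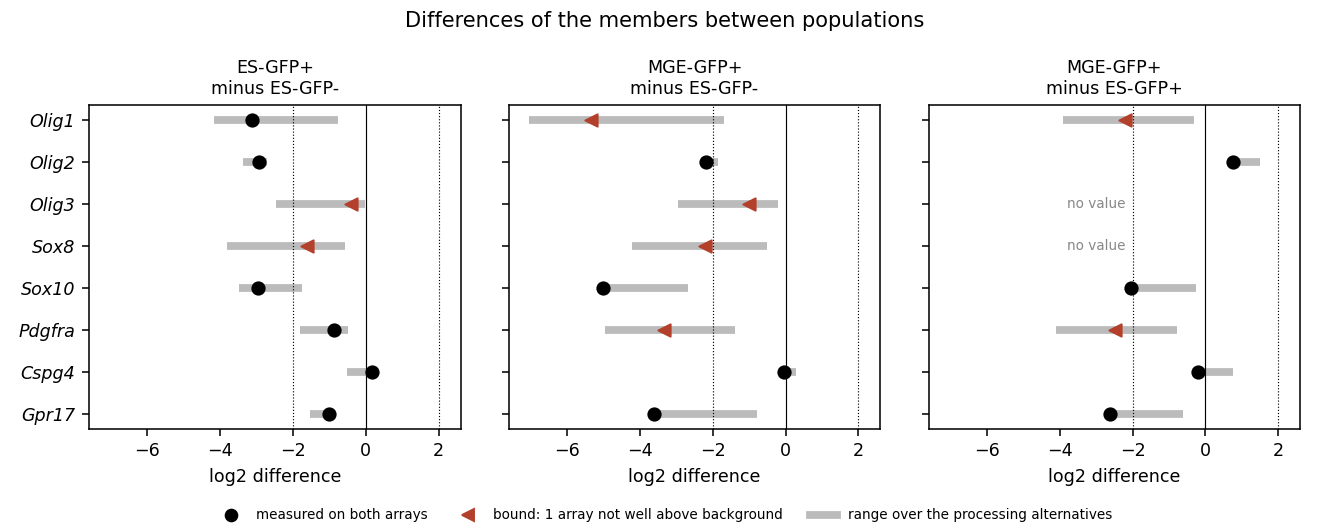
Log2 differences of the 8 genes for the 3 pairs of populations named above each panel. Black circles are as measured, and red triangles are bounds where 1 array was not well above background. A bound holds to the left only at the floor and background subtraction used. Grey bars are the range over the processing alternatives and run to the right of triangles too, and dotted lines mark 4-fold. Olig2 has the shortest bar among the genes left of -2 in the first panel and is the only symbol right of 0 in the last, while the bars of Olig1 are long in every panel.

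Among 19 other transcription factors of the lineage, 4 were at least 4-fold lower in ES-GFP+ than in ES-GFP- cells and 0 higher, where 1.75% of all genes were lower and 8.27% higher, and the median was -0.96. Nkx6-1 and Nkx6-2, homeodomain factors of ventral progenitors, differed by -2.51 and -3.18, Sox9, a SOX E factor of progenitors and glia, by -3.06, and Nfia, which acts at the onset of gliogenesis, by -2.34. Sox9 lay within the range of the control probes in ES-GFP+ cells, and over the alternatives its difference ran from -4.18 to -0.48. In MGE-GFP+ cells 6 of the 19 were at least 4-fold lower than in ES-GFP- cells and 1 was higher, where 6.8% of all genes were lower and 1.69% higher. The higher gene of the list was Sox6, which is also a gene of MGE interneurons. Against ES-GFP+ cells 3 of the 19 were lower in the embryo and 0 higher, where 13.5% of all genes were lower and 0.533% higher.

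Of 23 other genes of oligodendrocyte precursors, 3 were at least 4-fold lower in ES-GFP+ cells and 0 higher, with a median of 0.16. Of all genes, 1.75% were lower and 8.27% higher. In MGE-GFP+ cells 8 of the 22 with a value were at least 4-fold lower than in ES-GFP- cells and 0 higher. There 6.8% of all genes were lower and 1.69% higher. The 3 lower in ES-GFP+ cells were Ptprz1, a receptor phosphatase (log2 difference -2.70), Fabp7, a fatty acid binding protein of radial glia and precursors (-2.37), and Bcan, the proteoglycan brevican (at least 4.98-fold lower). Ptprz1 and Fabp7 are also radial glia genes. Pdgfa, the ligand of Pdgfra, was 3.91-fold lower in ES-GFP+ and 4.15-fold lower in MGE-GFP+ than in ES-GFP- cells, and was above the control probes in all 3 populations.

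Of 19 myelin genes with a value among 20, 1 was at least 4-fold lower in ES-GFP+ cells and 2 were higher. Of all genes, 1.75% were lower and 8.27% higher, so 2 of 19 higher is near that share. The median of the list was 0.14. The one lower was Bcas1, a marker of early myelinating cells (log2 difference -2.62). Mog, a late myelin glycoprotein, was 4.03-fold higher in ES-GFP+ than in ES-GFP- cells, with intensities of 1662, 465 and 335 in ES-GFP+, ES-GFP- and MGE-GFP+ cells, all above the control probes. Mal, the other one, was within the range of the control probes on every array. Myelin basic protein (Mbp) differed by -0.65, and Mag (-0.36) was within the range of the control probes throughout.

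**Figure D5:**
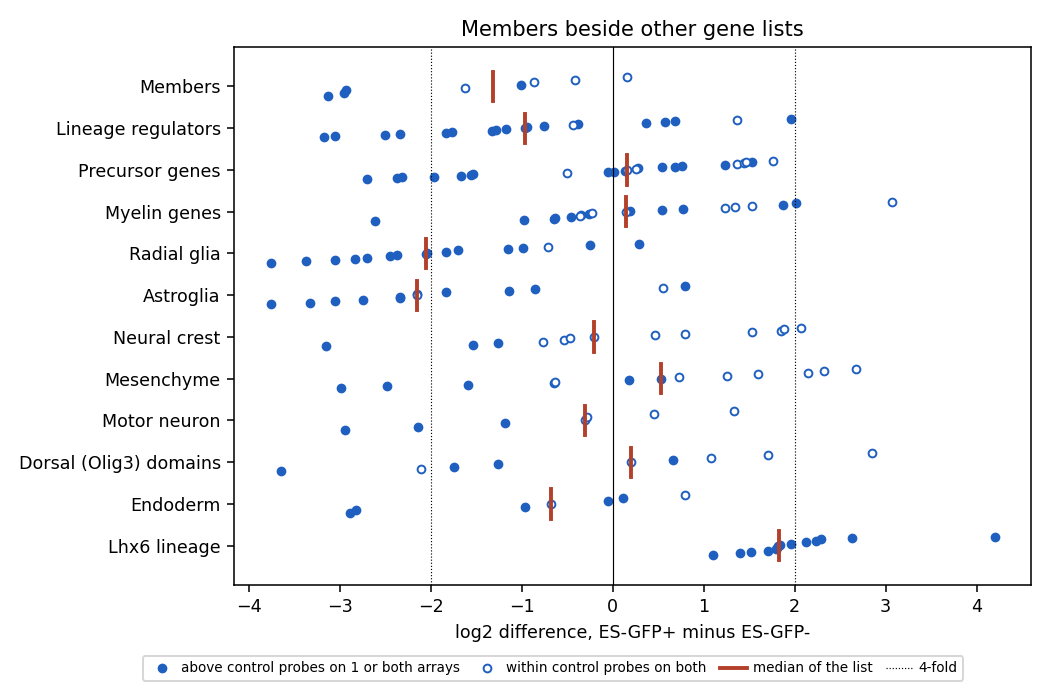
Log2 difference between ES-GFP+ and ES-GFP- cells for each gene of the 8 members and 11 other lists (1 point per gene with a value, bounds included; red bars are medians, dotted lines 4-fold, open points genes within the range of the control probes on both arrays). The medians of radial glia (-2.05) and astroglia (-2.16) lie left of that of the 8 genes (-1.32), those of precursor and myelin genes lie near 0, and every gene of the Lhx6 lineage list lies right of 0.

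Genes of other cell types moved in the same samples. Of 16 radial glia genes 9 were at least 4-fold lower in ES-GFP+ than in ES-GFP- cells and 0 higher (median -2.05). Of 13 astroglial genes 8 were lower and 0 higher (median -2.16), where 1.75% of all genes were lower and 8.27% higher. Sox9 is in both lists, and both share Slc1a3, a glutamate transporter, which had the lowest difference in each (-3.76). Their summed levels, in units of the 75th percentile of each array, were 19.0, 81.7 and 29.2 for radial glia and 7.89, 34.9 and 3.91 for astroglia in ES-GFP+, ES-GFP- and MGE-GFP+ cells, and 1.51, 8.41 and 1.37 for the 8 genes. The 5 genes with the pattern most like that of Olig2 over the 3 arrays, among 11584 genes, were Tk1, Dtl, Birc5, Ptprz1 and Sox9, with a root mean square distance of 0.0123 to 0.102 on the log2 scale. Tk1, Dtl and Birc5 are genes of dividing cells, and with 3 arrays many genes can be this close. Unlike Olig2, Tk1, Dtl and Sox9 were within the range of the control probes in both GFP+ populations, and Birc5 was in ES-GFP+ cells.

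For the other sources of the 8 genes, several markers also differed between the ES populations, in both directions. Of all genes, 1.75% were at least 4-fold lower in ES-GFP+ than in ES-GFP- cells and 8.27% higher. With lists this short, 1 higher gene in the crest list or in the dorsal list is near that share. On the ES-GFP+, ES-GFP- and MGE-GFP+ arrays 36.8%, 46.9% and 43.3% of all mouse probes exceeded the control probes. On the MGE-GFP+ array 77.1% were well above background. Of 13 neural crest genes with a value, which bear on Sox10, 1 was at least 4-fold lower in ES-GFP+ cells and 1 higher (median -0.21). The lower one was Ednrb, an endothelin receptor also made by astroglia (-3.15). The summed levels of this list were 3.45, 8.86 and 1.59, and 2, 3 and 2 of its 14 genes exceeded the control probes, while the crest specifiers Foxd3, Tfap2a and Tfap2b did so on 0 of the 3 arrays. Of 13 mesenchymal and pericyte genes, which bear on Pdgfra and Cspg4, 2 were lower and 3 higher (median 0.53). The higher ones were Prrx1 (2.67, from 1 of its probes) and the pericyte genes Rgs5 and Abcc9 (at least 5.01-fold and at least 4.42-fold), all within the range of the control probes on both arrays. The lower 2 were Pdgfrb (-2.48) and Dcn (-2.99), the summed levels were 4.38, 6.05 and 0.453, and 2, 6 and 0 genes exceeded the control probes. Over the alternatives the differences of Pdgfrb and Dcn shrank to as little as -0.15 and -0.65. Of 7 endoderm genes with a value, which bear on Pdgfra, 2 were lower and 0 higher (median -0.68), namely the floor plate and endoderm factors Foxa1 (-2.82) and Foxa2 (-2.89, and -3.35 to -1.92 over the alternatives). The list summed to 2.24, 5.85 and 0.0934, and in MGE-GFP+ cells 0 of its 8 genes were well above background. Of 7 motor neuron genes, which bear on Olig2, 2 were lower, Lhx3 (-2.15) and Lhx4 (-2.95), and 0 higher (median -0.31), with summed levels of 1.12, 2.82 and 0.783. Over the alternatives these differences shrank to as little as -0.83 and -1.04. Of 9 genes of the dorsal domains with a value, which bear on Olig3, 2 were lower and 1 higher (median 0.20), with summed levels of 2.44, 4.80 and 3.17. The largest difference there was that of Neurog2 (-3.65, and -4.67 to -1.29 over the alternatives), which is also made in the pallium. Of the 14 Lhx6 lineage genes 0 were lower and 5 higher (median 1.83), with summed levels of 190.6, 83.2 and 261. The part of these cell types in the levels of the 8 genes was not tested.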

How the data were processed

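RNA of 3 sorted populations was measured on 3 one-colour Agilent arrays of 62976 spots, all on 1 slide. The authors extracted the scans with Agilent Feature Extraction (version 10.7.3.1 per the file headers), and the deposited intensity of each spot is on a linear scale after background subtraction, with no scaling between arrays. The labels name a low-input kit and a 4x44K array, the study's methods a whole transcriptome amplification and the larger format found in the files. The deposited table of log2 values, whose scale is not stated, served as an alternative. It lay within 0.315 of log2 median spot intensities quantile normalised without background subtraction (column medians 7.68 to 7.69). Its differences of dim genes were smaller than the main ones in some comparisons and larger in others. Gpr17 was at -1.87 against -3.62 for MGE-GFP+ minus ES-GFP- cells, and at -1.27 against -1.01 between the ES populations.

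Flagged outlier spots (98 to 137 per array) and control spots were left out, repeat spots were averaged, and the array's 75th percentile was subtracted on the log2 scale. A probe was well above background where at least 0.5 of its spots had the software's call. Otherwise it was raised to the lowest level among called probes, and the fold is a bound. Probes were named by accession through a RefSeq table (26582 of 55681), and the probes of a gene were averaged. Alternatives were the 50th percentile or quantile normalisation, normexp (offset 50, on median spot signals where mean signals had been planned), no background subtraction, the deposited values, no filter, a floor at the control probes, flagged spots kept and the brightest probe. The script was tested on simulated data. Python 3.11.15, pandas 2.3.3, R 4.3.3 and limma 3.58.1 were used.

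The members and the lists were chosen with earlier results of these data known. Named were the 8 members, Lhx6, up to 4 genes a list with the largest difference between the ES populations among those well above background and above the control probes on 1 of these arrays, the myelin genes Mbp, Mog and Mag, and the 5 genes most like Olig2. Mal, Sox6, Prrx1, Rgs5, Abcc9, Foxd3, Tfap2a and Tfap2b were named after their values were seen. 1 item that the rule names is not reported here. No test was made, since each population had 1 array, and this number is what limits the precision.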

Additional observations from a re-analysis of the deposited data

How the results depend on the processing

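Of 22 differences of the 8 genes, recomputed under 9 alternatives (181 values), 170 values kept their direction, and the 11 that did not were all of Cspg4. The count of genes at least 4-fold lower in ES-GFP+ than in ES-GFP- cells was 3, and became 5 with quantile normalisation, 5 with no filter on dim probes, 1 (of 3 genes with a value) with a floor at the control probes and 5 at 2-fold. For MGE-GFP+ against ES-GFP- cells it was 6, and became 2 with normexp, 3 in the deposited values and 2 (of 4) with a floor at the control probes. For MGE-GFP+ against ES-GFP+ cells it was 4, and became 0 with the 50th percentile, quantile normalisation, normexp, no background subtraction, the deposited values and a floor at the control probes. The other alternatives left each count within 1.5 times. A floor at the control probes leaves fewer genes with a value, and the cause of the other changes was not tested. Of all genes at least 4-fold different between the ES populations, 17.5% were lower, 40% with the 50th percentile and 63.5% with quantile normalisation. Of those between the GFP+ populations, 96.2% were lower, 64.8% with the 50th percentile and 50% with quantile normalisation. Of those between MGE-GFP+ and ES-GFP- cells, 80.1% were lower, and 65.4% with the 50th percentile. Over the alternatives, genes at least 4-fold lower were 0.837% to 5.06% of all genes between the ES populations, 2.62% to 7.40% for MGE-GFP+ against ES-GFP- cells and 1.05% to 19.3% between the GFP+ populations. The median of all genes ran from -0.18 to 0.32, from -0.06 to 0.25 and from -0.44 to 0.40 over the alternatives in the ES, the MGE-GFP+ against ES-GFP- and the GFP+ comparison. Signal over background limits Olig3 and Sox8, which were measured on 1 array only, and Olig1 and Pdgfra in the embryo. No paired analysis was possible because there was 1 array per population.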
